A study of Mus musculus with 12 samples.

Results

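Colon tumours that lacked both miR-34a and p53 in their intestinal epithelial cells (double deficient) were compared with colon tumours that lacked p53 alone in those cells (p53 deficient), which asks what the loss of miR-34a does where p53 is already absent. The 2 groups make up 6 of the study's 12 RNA sequencing libraries, 3 per genotype, and were taken from the library titles. All mice were of the FvB strain and received azoxymethane, a carcinogen that induces colon tumours, at 10 mg/kg into the peritoneum once a week over 6 weeks, and tumours were taken 16 weeks after the first dose. The remaining 6 libraries, 3 from wt tumours and 3 from tumours lacking only miR-34a (miR-34a deficient), entered the fit to estimate the spread between libraries. Age, sex, the driver of the epithelial deletion and whether the libraries of a genotype came from separate animals are not stated in the labels, so a p-value here speaks of the spread between libraries, which may be technical. The RNA came from whole tumour tissue, in which other cell types keep both genes, and fewer cells of a type cannot be told apart from less RNA per cell.

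p53, encoded by Trp53, is a transcription factor that answers DNA damage and other stress with cell cycle arrest or cell death, and the gene of miR-34a is one of those it activates. The microRNA lowers the stability and translation of messenger RNAs whose 3' untranslated region (3' UTR) pairs with its seed, the bases near its 5' end. Its published targets include cell cycle genes, Notch receptors, the receptor tyrosine kinases Met and Axl, and the interleukin-6 receptor gene Il6ra. In the colon, miR-34a and p53 are both known as brakes on tumour growth and invasion.

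The microRNA and 3 relatives with the same seed are shown because the deletion is labelled for miR-34a alone; miR-34c and miR-449b belong to the same family. In the mature sequences, taken from RefSeq (GRCm38.p6) and written 5' to 3', capitals mark the seed, bases 2 to 8.
mmu-miR-34a-5p: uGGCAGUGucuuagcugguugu
mmu-miR-34b-5p: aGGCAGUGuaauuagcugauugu
mmu-miR-449a-5p: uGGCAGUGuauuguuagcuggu
mmu-miR-449c-5p: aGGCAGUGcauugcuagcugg
The 4 microRNAs have the same seed and are encoded on chromosomes 4, 9 and 13, with mature miR-34a-5p at chr4:150068473-150068494 on the + strand. The microRNAs themselves were not analysed here, so the loss of miR-34a was not read from these values.

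Values are the deposited normalized expression values per gene, and how deeply each library was sequenced is unknown. A difference is double deficient minus p53 deficient on the log2(value + 1) scale, with its SE and n = 3 libraries per group, and understates the fold of genes with low values. The table holds 21792 genes, and limma was run on the 21322 whose mean value over the 12 libraries reached 1. A gene counts as changed when its adjusted p (Benjamini-Hochberg, over all genes tested) is under 0.05. Both groups carried the p53 deletion: Trp53 stood at 598, 401 and 576 in the p53 deficient libraries and at 924, 504 and 724 in the double deficient ones, against 4126 to 4512 in wt tumours. The brush border gene Vil1 (21205, 29871 and 22851 against 16701, 28444 and 23110) and the other epithelial junction and keratin genes were high in all 6 libraries.

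Beyond the genotype, the 2 groups also differed in sex-linked genes. Averaged over 4 genes of the Y chromosome, the log2 level was 3.73, 5.21 and 6.98 in p53 deficient libraries 1, 2 and 3 and 0.25, 0.40 and 0.79 in the double deficient ones. Xist, the RNA that silences the second X chromosome in females, was 4877, 694 and 107 against 2878644, 2202682 and 563257. No double deficient library reached the Y-linked level of any p53 deficient one, so this difference and the genotype cannot be told apart within the 6 libraries. p53 deficient 1 carries another run code in its library name than the other 5, and p53 deficient 2 had a low average log2 level of 6 posterior Hox genes, 8.40 against 11.73 to 15.64 in the other 5 libraries. The deposited values lack 1 direction of variation within genotypes, with 47.2% of its weight on double deficient 3, and the fit gives up 1 degree of freedom for it.

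Few genes separated the 2 tumour types at the threshold. Of 21322 genes, 47 changed (0.22%), 12 higher (0.0563%) and 35 lower (0.164%) in double deficient tumours. Among them 19 have clone, predicted gene or pseudogene symbols and 28 have other symbols, 7 higher and 21 lower. At an unadjusted p under 0.05, limma gave 2644 genes (12.4%), 1387 higher (6.51%) and 1257 lower (5.9%). The 2 groups did not overlap for 4180 genes (19.6%), with double deficient libraries above for 2285 (10.7%) and below for 1895 (8.89%), and these include all 47. With Y-linked expression as a covariate, 5 genes passed: Eno1b, Fshr, Gm15195, Gm4735 and Rpl35a. The Y-linked level separates the 2 groups, and this fit adjusts for it by a slope from within the genotypes. Passing or failing in it does not sort genes by Y-linked level or genotype, and none of the 47 reversed direction in it. The 12 fits that leave out 1 library each gave 17 to 133 changed genes and kept 15 to 44 of the 47. The count was 31 without wt 1, 28 without wt 3, 30 without miR-34a deficient 1, 133 without p53 deficient 1, 21 without p53 deficient 2, 18 without p53 deficient 3, 17 without double deficient 1 and 85 without double deficient 2. In all 12 of these fits 14 genes kept their call, among them Eno1b, Fshr, Rpl35a, Phactr4, Gpr110 and Ccna1. In wt 1, whose Y-linked level was 0 and thus under those of double deficient tumours, 43 of the 47 genes lay beyond the double deficient range on the p53 deficient side. In miR-34a deficient 1, also at 0, 38 did. The 47 genes were selected on the same double deficient values, and the share over all genes was not taken. These 2 counts therefore do not test the part of the Y-linked level.

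**Figure D1:**
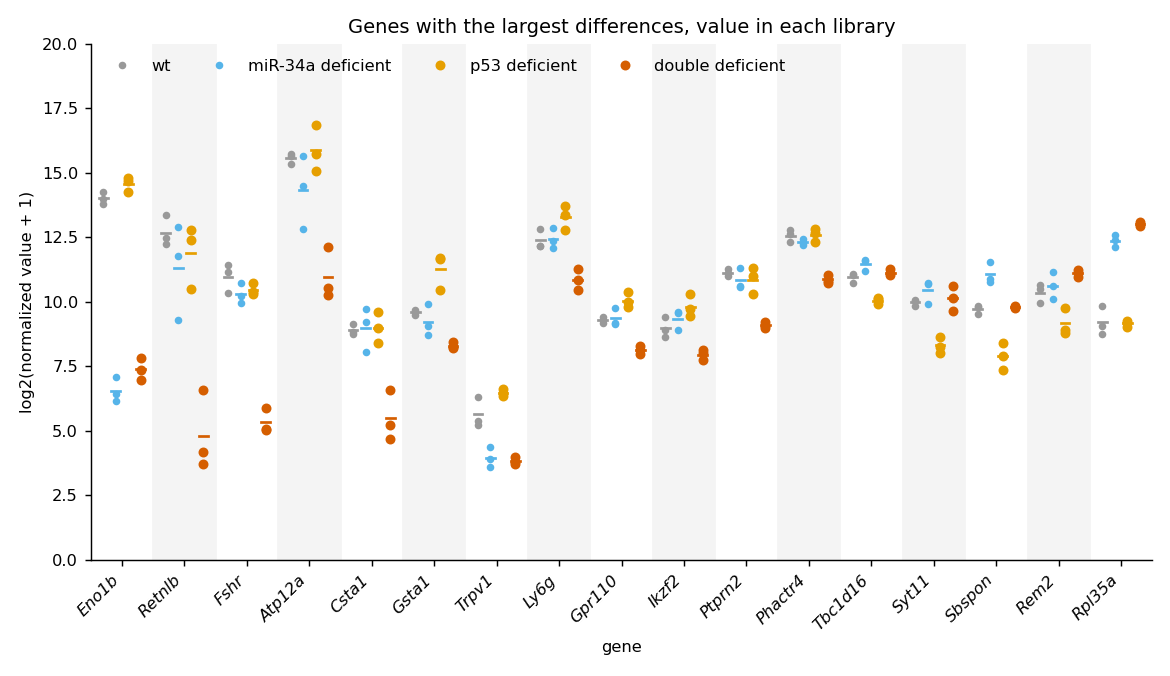
Value of the 17 genes with the largest differences in each of the 12 libraries, on the log2(normalized value + 1) scale (points, libraries; short lines, mean of 3). For all 17 genes the 3 double deficient points lie clear of the 3 p53 deficient points, and Eno1b and Trpv1 are low and Rpl35a is high in miR-34a deficient tumours as well.

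The lower genes included Retnlb, Atp12a, Csta1 and Gsta1. Retnlb, which encodes a resistin-like protein that goblet cells secrete into the gut lumen, stood at 7128, 1449 and 5455 in the p53 deficient libraries and at 12, 95 and 17 in the double deficient ones. It fell by 7.09 ± 1.00 on the log2 scale (adjusted p = 0.02). Atp12a, the non-gastric proton-potassium pump of the distal colon, stood at 55233, 119914 and 34757 against 1477, 4516 and 1233, a fall of 4.92 ± 0.71 (adjusted p = 0.0223). In neither gene did a double deficient library come within the p53 deficient range, and in both the wt values (4796 to 10451 and 41489 to 53979) overlapped those of p53 deficient tumours. Csta1, a cystatin that inhibits cysteine proteases, was at 776, 341 and 513 against 25, 94 and 37 and fell by 3.50 ± 0.54 (adjusted p = 0.0323). Gsta1, a glutathione transferase of detoxification, was at 1394, 3222 and 3374 against 301, 299 and 351 and fell by 2.96 ± 0.37 (adjusted p = 0.0105). Gm10639, a predicted gene 0.0611 Mb from Gsta1, fell with it (140, 313 and 321 against 23, 20 and 29). Both genes lay between the 2 groups in the libraries with intact p53. Gsta1 was at 728 to 821 in wt and 419 to 958 in miR-34a deficient tumours, and Gm10639 at 63 to 89 and 52 to 70. The related Gsta2, Gsta3 and Gsta4 did not pass, with overlapping groups. The calls of Retnlb, Atp12a, Csta1 and Gsta1 were lost when single libraries were left out. Leaving out double deficient 1 took the adjusted p to 0.105 for Retnlb, 0.109 for Atp12a and Csta1, and 0.0643 for Gsta1. The differences in that fit were -6.53, -4.70, -3.10 and -2.93. Atp12a and Csta1 also lost their calls without wt 1 or wt 3, which are outside the comparison.

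Several receptors and signalling genes were also lower in double deficient tumours. Fshr, the receptor of follicle-stimulating hormone (chromosome 17, 88984952 to 89200675), stood at 1321, 1712 and 1264 in the p53 deficient libraries and at 58, 33 and 32 in the double deficient ones. It fell by 5.13 ± 0.34 (adjusted p = 0.000103) and passed in all 29 alternatives, and its values in wt (2311, 2737 and 1286) and miR-34a deficient tumours (1187, 1701 and 1002) overlapped those of p53 deficient ones. Of 7 tested genes within 1 Mb of Fshr it was the 1 that changed, and their median difference was -0.72. The 45 tested within 5 Mb had a median of -0.46. Without overlap, 9 of the 45 had double deficient libraries below and 2 above, against 8.89% and 10.7% of all genes. Gm10093, a processed pseudogene 10.6 Mb from Fshr, fell by 5.23 ± 0.44 (adjusted p = 0.000822 by limma). Trpv1, the cation channel opened by heat and capsaicin, was at 98, 80 and 87 against 13, 15 and 12, and fell by 2.64 ± 0.39 (adjusted p = 0.0252). Gpr110, an adhesion G protein-coupled receptor, fell by 1.92 ± 0.23 (885, 1011 and 1325 against 312, 249 and 279; adjusted p = 0.00914). The secretory granule phosphatase gene Ptprn2 fell by 1.76 ± 0.27 and Ikzf2, the gene of the zinc finger factor Helios, by 1.86 ± 0.30 (adjusted p = 0.0323 and 0.0418). Gpr110 was also above the double deficient range in wt (586 to 679) and miR-34a deficient tumours (561 to 872). Without double deficient 1 the adjusted p was 0.109 for Trpv1 and Ikzf2 and 0.124 for Ptprn2, while Gpr110 and Fshr kept their calls.

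Phactr4, a regulator of protein phosphatase and of actin, stood at 7177, 5172 and 6465 against 2112, 1711 and 1811. It fell by 1.73 ± 0.18 (adjusted p = 0.0031), kept its call in all 12 fits without 1 library, and stood at 4763 to 7043 in wt and miR-34a deficient tumours. It lies on chromosome 4, 17.7 Mb from Mir34a, and none of the 133 genes tested within 5 Mb of Mir34a changed. The other 9 lower genes with gene symbols, named here after their values were seen, fell by 0.97 to 1.66: Fam124a, Klf6, Adarb2, Cwh43, Pag1, Mboat1, Ipmk, Myo1c and Ptpn13. Klf6, a zinc finger transcription factor, was at 16179, 28200 and 18734 against 7280, 7479 and 7401, and Myo1c, an unconventional myosin, at 22597, 22700 and 16258 against 9954, 9688 and 7961. Without p53 deficient 2 the adjusted p of Myo1c was 0.14, and without double deficient 1 that of Klf6 was 0.0727.

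Among the 7 higher genes with gene symbols, Rpl35a, a protein of the large ribosomal subunit, had the largest difference. It stood at 528, 588 and 619 in the p53 deficient libraries and at 8262, 7922 and 8714 in the double deficient ones, a rise of 3.84 ± 0.25 (adjusted p = 0.000103). The processed copies Rpl35a-ps3, Rpl35a-ps4 and Rpl35a-ps6 fell at the same time, from values of 5 to 20 to values of 0 or 1, calls that were lost without p53 deficient 2, p53 deficient 3 or double deficient 1. In the 6 libraries these called copies were at 20 or less, against 528 to 8714 for the gene. Of the copies that did not pass, Rpl35a-ps5 was at 52, 32 and 66 against 0, 2 and 4 (adjusted p = 0.0753 by limma). Rpl35a-ps2 was at 2, 7 and 10 against 0, 0 and 0, and Rpl35a-ps7 at 2, 2 and 5 against 4, 5 and 6. Reads may be divided between the copies and the gene, which was not tested. Sbspon, which encodes a protein with somatomedin B and thrombospondin domains, was at 338, 163 and 237 against 895, 866 and 924 and rose by 1.92 ± 0.28 (adjusted p = 0.0247). Rem2, a small GTPase that restrains calcium channels, rose by 1.95 ± 0.32 (877, 444 and 483 against 2403, 2218 and 2024; adjusted p = 0.0469). Syt11, a synaptotagmin of vesicle traffic, rose by 1.82 ± 0.30 (401, 262 and 303 against 1550, 799 and 1140; adjusted p = 0.0446). Tbc1d16, a GTPase-activating protein for Rab proteins, was at 1124, 958 and 1110 against 2210, 2449 and 2091 and rose by 1.08 ± 0.17 (adjusted p = 0.035). Each p53 deficient library lay below all libraries of the other 3 genotypes in these 4 genes, and double deficient values overlapped those of wt in all but Rem2, where they were higher. Without double deficient 1 the adjusted p was 0.109 for Sbspon, 0.174 for Rem2, 0.142 for Syt11 and 0.116 for Tbc1d16. Ccna1, the gene of cyclin A1, rose from 7, 8 and 11 to 88, 76 and 88 (3.15 ± 0.37, adjusted p = 0.0081), while Ccna2, cyclin A2 of dividing cells, did not pass. Reg1, a secreted lectin of regenerating epithelium, was at 0, 0 and 1 against 7, 8 and 12 and at 0 in all 6 libraries with intact p53 (2.96 ± 0.42, adjusted p = 0.0223, and 0.0978 without p53 deficient 2).

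Part of the remaining calls were in copies of other genes. Of the 47 changed genes 13 are annotated as pseudogenes, 1 higher and 12 lower, which is 0.742% of the 1753 pseudogenes tested against 0.186% of 16697 protein-coding genes. Eno1b (chromosome 18, 48045335 to 48048412), a copy of the glycolytic enolase gene Eno1, had the smallest p. Its values of 19687, 28557 and 26524 in the p53 deficient libraries contrasted with 126, 225 and 165 in the double deficient ones, and it fell by 7.19 ± 0.29 (adjusted p = 1.96e-06). Eno1, 0.174 Mb from Mir34a, was at 31544, 39717 and 36424 against 62728, 63730 and 66176, a difference of 0.85 ± 0.14 that did not pass (adjusted p = 0.0548) but did in 3 of the 29 alternatives, with 0.00911 under quantile normalization. Reads of Eno1 and Eno1b can be divided between the 2, so both values are uncertain. Gm15195, a processed pseudogene on the X chromosome, was at 259, 362 and 393 against 1, 3 and 3, and the predicted genes Gm14295 and Gm14308, 0.18 Mb apart on chromosome 2, were both higher in double deficient tumours, calls lost in 6 and 9 of the 12 fits without 1 library.

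Most markers of the absorbing colon surface had lower values in double deficient tumours, although none of them passed. Of 30 surface colonocyte genes tested, none changed and 25 were below 0. At an unadjusted p under 0.05 by limma 15 were lower and 1 was higher. Their median difference was -1.15 against 0.05 over all genes tested. Beside this and the lists below, 55% of all genes tested were above 0. At that unadjusted p, 5.9% of all genes were lower and 6.51% higher. Aqp8, the water channel of the colon surface, was at 162, 52 and 53 against 0, 10 and 1 (a difference of -4.79 ± 0.88, adjusted p = 0.0733). Slc26a3, the chloride-bicarbonate exchanger that absorbs chloride, was at 438, 1755 and 146 against 17, 71 and 13 (-4.20 ± 0.96, adjusted p = 0.144). Neither gene had overlapping groups, and neither passed, but Aqp8 did without double deficient 2 (adjusted p = 0.00468). Per library, the mean log2 level of the colonocyte genes was 8.87, 8.41 and 8.53 in p53 deficient and 6.64, 8.37 and 7.30 in double deficient tumours, so double deficient 2 lay just under the p53 deficient range. In wt tumours the level was 9.77, 9.21 and 9.30, above every p53 deficient and double deficient library. Without double deficient 1 the median was -0.71. The Y-linked level differs between the groups for all lists here, and its part in the list medians was not tested. The fit with it as a covariate gave -1.56 for this list, which does not tell its part from that of the genotype.

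Most genes of secretory cells had lower values as well. Of 21 goblet cell genes 1 changed (Retnlb, lower) and 18 were below 0, with a median of -1.37. Muc2, the gel-forming mucin of colon mucus, was at 18459, 3544 and 9330 against 1850, 7074 and 1460 with overlapping groups (-1.67 ± 0.90, adjusted p = 0.483). The goblet cell level was 10.91, 9.86 and 10.64 against 8.96, 9.63 and 8.48, with all double deficient libraries below the p53 deficient ones. Of 21 enteroendocrine genes none changed and 18 were below 0, with a median of -0.71. Insl5, a hormone of colonic L cells, was at 226, 1014 and 102 against 7, 25 and 3, and the granule protein gene Chgb at 4310, 8956 and 5517 against 879, 1272 and 683. Neither passed (adjusted p = 0.176 and 0.194), although Chgb did without miR-34a deficient 3 (adjusted p = 0.0368), and without p53 deficient 1 the list's median was -1.33. Colon ion pumps and channels (18 tested, 1 lower, 15 below 0, median -0.77) include Atp12a and share Aqp8 and Slc26a3 with the colonocyte list. Their level was 11.40, 11.38 and 11.19 in p53 deficient and 10.00, 10.65 and 10.07 in double deficient tumours. Tuft cell genes went the other way, with 13 of 14 above 0, none changed and a median of 1.10, which was 0.64 without double deficient 1 and 0.51 with the Y-linked covariate.

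**Figure D2:**
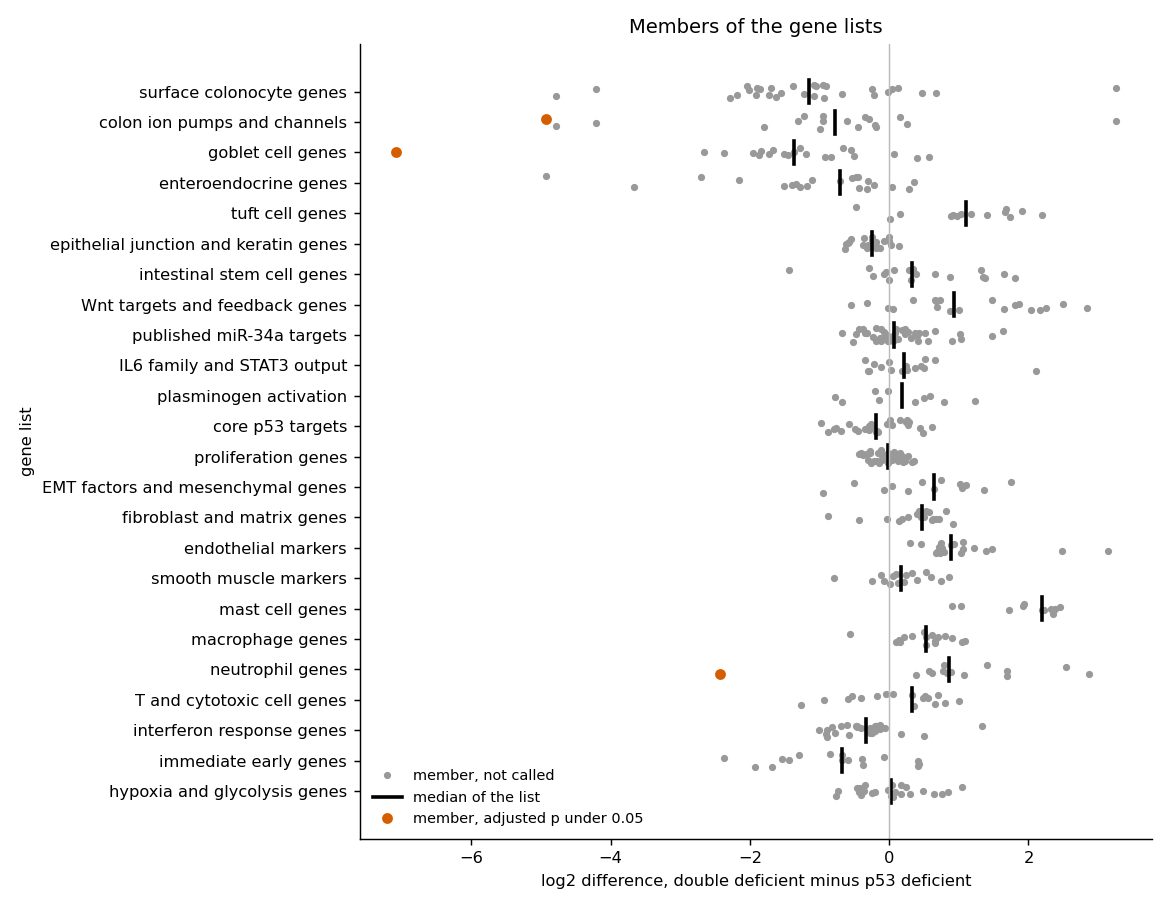
Log2 difference, double deficient minus p53 deficient, of each tested member of 24 gene lists (points; bars, median of the list; orange, adjusted p under 0.05). Colonocyte, ion transport, goblet and enteroendocrine genes lie mostly left of 0, Wnt, endothelial and mast cell genes mostly right of it, and the published miR-34a targets lie on both sides.

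General epithelial genes were mostly lower too, by smaller amounts than the colonocyte, goblet and enteroendocrine genes. Of 20 epithelial junction and keratin genes none changed, 17 were below 0 and the median was -0.25. At an unadjusted p under 0.05 by limma 5 of them (25%) were lower, against 5.9% of all genes. The adhesion molecule gene Cdh1 was at 62960, 68564 and 80438 against 51989, 67914 and 66443, with overlapping groups. Dsg2, a desmosomal cadherin, and Esrp1, a splicing factor of epithelial cells, were lower in all 3 double deficient libraries (-0.64 ± 0.18 and -0.54 ± 0.14) and did not pass (adjusted p = 0.208 and 0.171). The mean level of the list ranged from 14.77 to 14.95 in p53 deficient and from 14.53 to 14.64 in double deficient tumours.

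**Figure D3:**
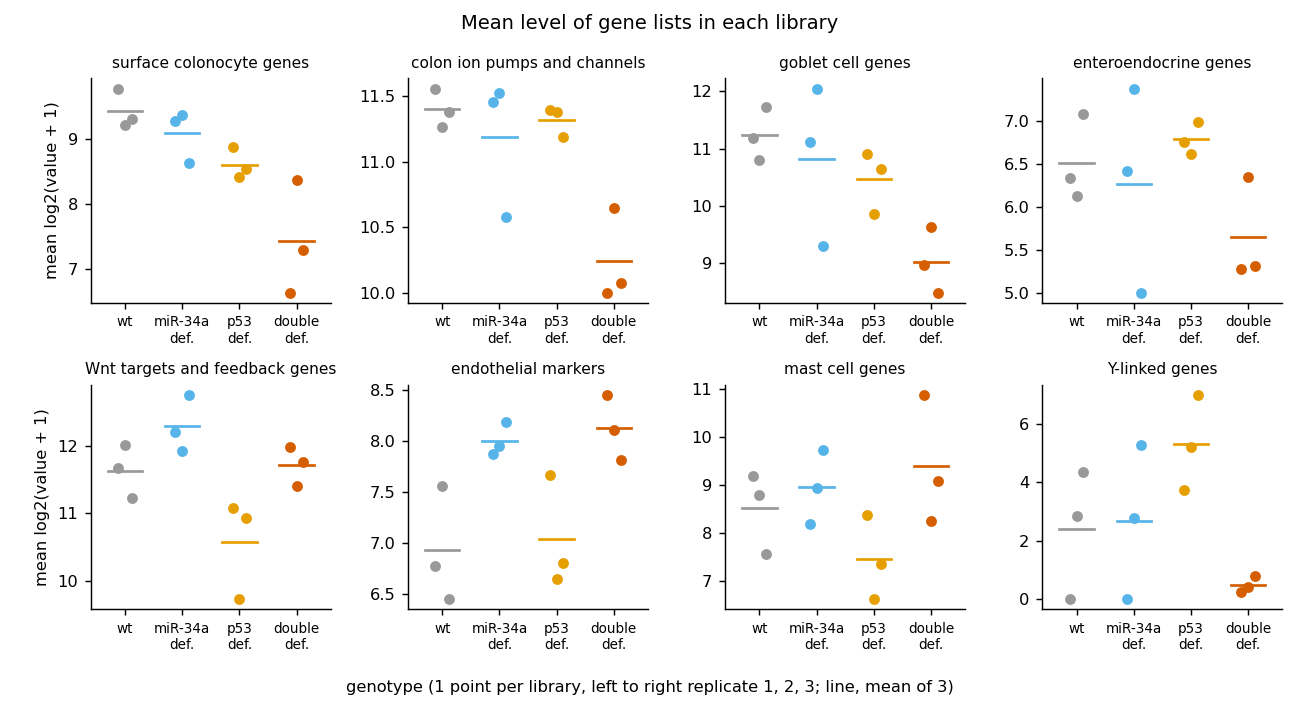
Mean log2(value + 1) of the members of 8 gene lists in each library by genotype (points, replicates 1, 2 and 3 from left to right; lines, mean of 3; each panel has its own axis, which does not start at 0). Double deficient libraries lie below p53 deficient ones for the 4 epithelial lists and the Y-linked genes and above them for Wnt and endothelial genes, and mast cell genes overlap.

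Wnt targets and feedback genes, which mark active beta-catenin signalling, had higher values in double deficient tumours. Of 20 tested none changed and 17 were above 0, 9 of them at an unadjusted p under 0.05, with a median of 0.94. The secreted Wnt inhibitor Wif1 was at 1793, 449 and 914 against 8207, 3631 and 4407 (2.49 ± 0.55, adjusted p = 0.133), and Notum, the enzyme that inactivates Wnt proteins, at 2088, 325 and 926 against 10297, 3694 and 6102 (2.84 ± 0.72, adjusted p = 0.174). Axin2, a feedback inhibitor of the pathway, was at 9662, 3225 and 7857 against 10586, 11431 and 12406 (0.87 ± 0.41, adjusted p = 0.421). Groups of these 3 genes did not overlap and p53 deficient 2 was the lowest library in each. Wif1 passed without p53 deficient 1 (adjusted p = 0.0445). Without p53 deficient 2 the list's median was 0.57. The mean level was 11.08, 9.73 and 10.93 in p53 deficient and 11.98, 11.41 and 11.76 in double deficient tumours, against 11.22 to 12.01 in wt, so the p53 deficient libraries were the ones outside the wt range. The stem cell marker Lgr5 was at 662, 749 and 2685 against 5907, 1487 and 4732, with overlapping groups, and the 18 stem cell genes had a median of 0.32 with none changed. The 36 proliferation genes had a median of -0.02 with none changed (-0.11 to 0.09 without 1 library), and Mki67, the marker of cycling cells, was at 9699, 13905 and 12766 against 7526, 11166 and 11399.

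Markers of stromal and immune cells mostly had differences above 0, and only Ly6g changed. All 19 endothelial markers were above 0, 9 of them at an unadjusted p under 0.05, with a median of 0.89. Pecam1, an adhesion molecule between endothelial cells, was at 397, 257 and 284 against 755, 454 and 416, and the vascular growth factor receptor gene Flt1 at 248, 196 and 150 against 688, 397 and 342. Both had groups apart and neither passed (adjusted p = 0.37 and 0.216). Mast cell genes had the largest median of the immune lists, 2.20 over 11 genes that were all above 0. The mast cell protease Cpa3 was at 134, 59 and 62 against 1419, 146 and 325 (2.35 ± 0.79, adjusted p = 0.271), and double deficient 1 was the highest library. The list's median was 1.36 when double deficient 1 was left out. Macrophage genes had a median of 0.54 (16 of 17 above 0), fibroblast and matrix genes 0.47 (17 of 20 above 0), smooth muscle markers 0.16 and T and cytotoxic cell genes 0.32, with none changed. These medians moved with single libraries, and without double deficient 1 they were 0.24, 0.18, -0.02 and -0.19. Without p53 deficient 3 they were 0.08 for fibroblast genes, 0.02 for smooth muscle markers and 0.56 for T cell genes. The T cell median was -0.09 without p53 deficient 2, and without double deficient 3 the fibroblast and smooth muscle medians were 0.79 and 0.27. With the Y-linked covariate the medians of macrophage, fibroblast and smooth muscle genes were 0.26, -0.03 and -0.05. Of 14 neutrophil genes 13 were above 0 and the single changed one was lower. Their median was 0.86, and it was 0.30 without p53 deficient 2 and 1.37 without p53 deficient 1. That gene, Ly6g, a surface protein of mouse neutrophils, was at 7051, 13517 and 10509 against 1407, 2469 and 1853 and fell by 2.43 ± 0.31 (adjusted p = 0.0125, and 0.0713 without double deficient 1). The mean log2 level of the neutrophil list was 6.53, 4.59 and 5.95 in p53 deficient and 6.84, 6.94 and 6.23 in double deficient tumours. Of these libraries p53 deficient 2 was thus the lowest for the list and the highest for Ly6g, so Ly6g did not follow the list. Ly6a and Ly6c1 of the same gene family were lower in all 3 double deficient libraries and did not pass (adjusted p = 0.194 and 0.221), although Ly6a did without p53 deficient 1 (adjusted p = 0.0445).

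Genes that p53 activates had a mean log2 level of 9.90 to 10.07 in p53 deficient and 9.70 to 9.95 in double deficient tumours, against 10.51 to 11.27 in wt tumours. Of 27 core p53 targets none changed, 17 were below 0 and the median was -0.19, or -0.12 without p53 deficient 2. Cdkn1a, the p21 inhibitor of cyclin-dependent kinases, was at 9454, 10113 and 12694 against 5448, 7855 and 6695, and Mdm2, which marks p53 for degradation, at 3553, 3988 and 4296 against 3103, 3332 and 3188. In both genes every double deficient library was below every p53 deficient one and neither passed (-0.69 ± 0.34 and -0.29 ± 0.15, adjusted p = 0.441 and 0.472). Perp, a membrane protein of p53-driven death, and Pmaip1, the BH3-only protein Noxa, had the smallest p of the list (-0.49 ± 0.13 and -0.79 ± 0.22, adjusted p = 0.188 and 0.195).

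The interleukin-6 receptor, plasminogen activation and mesenchymal genes were read because they are tied to miR-34a in the literature. Il6ra stood at 254, 63 and 125 in the p53 deficient libraries and at 179, 224 and 145 in the double deficient ones, with overlapping groups (0.51 ± 0.58, adjusted p = 0.758). Its ligand Il6 was at 46, 15 and 19 against 70, 165 and 100, which did not overlap and did not pass (2.10 ± 0.92, adjusted p = 0.386). Socs3, induced by the STAT3 factor downstream of the receptor, was at 2190, 1652 and 3912 against 2919, 2883 and 2866. The 16 genes of the IL6 family and STAT3 output had a median of 0.21 with none changed, which was -0.02 without p53 deficient 2 and 0.05 without double deficient 1. The 10 genes of plasminogen activation had a median of 0.18 with none changed. Without 1 library it was 0.08 (p53 deficient 2), 0.51 (p53 deficient 3), 0.50 (double deficient 1), 0.27 (p53 deficient 1) or 0.00 (double deficient 2). Plaur, the receptor of the plasminogen activator urokinase, was at 8202, 17879 and 15812 against 6997, 8570 and 7722, with overlapping groups (-0.77 ± 0.34, adjusted p = 0.386). Among 13 mesenchymal and transition genes none changed and 10 were above 0, with a median of 0.64 that was 0.35 without double deficient 1 and 0.36 without p53 deficient 3. Vim, the intermediate filament of mesenchymal cells, was at 2278, 1852 and 2199 against 4919, 2838 and 3086, and the matrix protein gene Fn1 at 25541, 9328 and 11436 against 54501, 61565 and 30997. Both had groups apart without passing (0.74 ± 0.30 and 1.75 ± 0.43, adjusted p = 0.356 and 0.164). In wt tumours Vim was at 2744, 6518 and 4280, so its double deficient values lay within the wt range and its p53 deficient ones below it. Fn1 was at 20497, 41814 and 27891 in wt tumours. Fn1 passed without double deficient 3 (adjusted p = 0.0442) and without p53 deficient 1 (0.0445). The endothelial markers in the same libraries were higher by a median of 0.89; the part of other cell types in these values was not tested.

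Published targets of miR-34a showed no common direction. Of 45 tested none changed, 25 were above 0 (55.6%, against 55% of all genes tested) and 20 below. The median was 0.06 (0.00 to 0.11 without 1 library) against 0.05 over all genes tested. At an unadjusted p under 0.05 there were 6 by limma, 3 higher and 3 lower. That is 13.3%, near the 12.4% of all genes tested. Inhbb, a subunit of activin and inhibin, had the largest difference, at 208, 131 and 280 against 871, 414 and 649 (1.64 ± 0.39, adjusted p = 0.158), and its groups did not overlap. Axl, a receptor tyrosine kinase, was at 854, 646 and 417 against 1361, 880 and 622 (0.56 ± 0.37), and the macrophage growth factor receptor Csf1r at 491, 317 and 349 against 945, 479 and 479 (0.66 ± 0.37). Met, the receptor of hepatocyte growth factor, was at 5270, 4291 and 6040 against 5080, 4444 and 4741, and Myc at 5864, 5979 and 6424 against 7862, 4960 and 6506. Axl, Csf1r, Met and Myc had overlapping groups and adjusted p between 0.493 and 0.931.

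**Figure D4:**
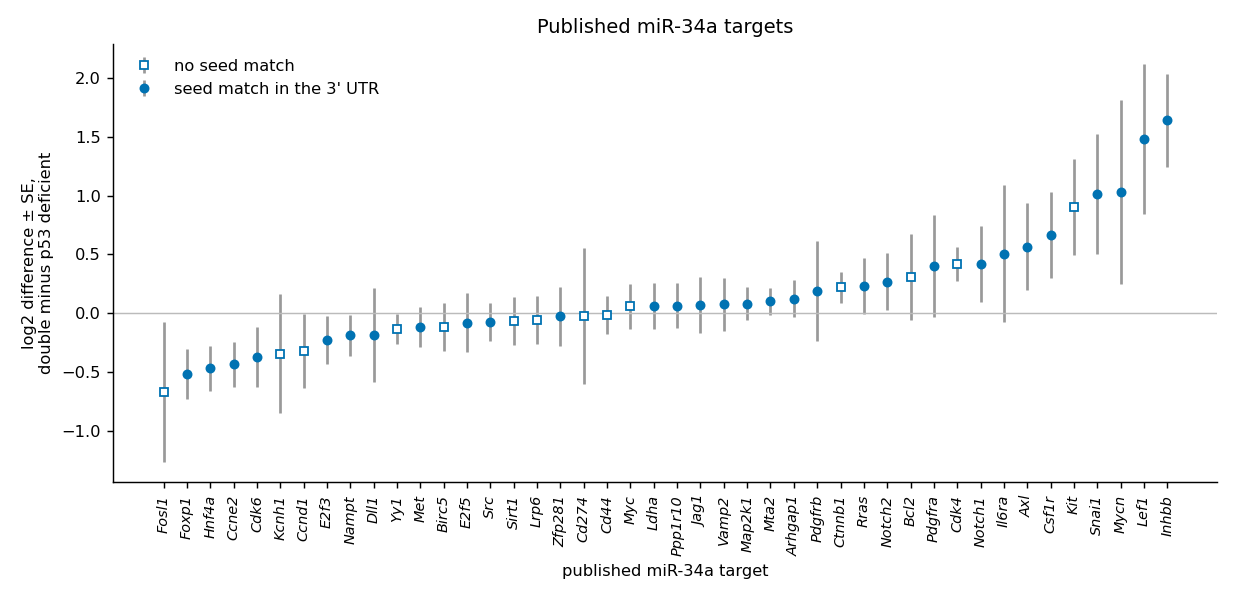
Log2 difference ± SE of 44 of the 45 published miR-34a targets in double minus p53 deficient tumours, in order of size (filled circles, a seed match in the 3' UTR; open squares, none). The differences run from -0.67 to 1.64 around 0, and genes with and without a match are mixed along the order.

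Genes that carry the seed match were then compared with those that do not. The match sought was CACTGCC, the complement of the seed, or CACTGCCA, which contains it and adds an A, on the transcript strand of any annotated 3' UTR (GENCODE M21, GRCm38). Of 16471 tested genes with such a region, 2751 (16.7%) held a match. Their median difference was 0.015, with 51.7% above 0, 1 changed gene higher and 3 lower. The 13720 genes without a match had a median of 0.043 with 54.4% above 0, and the 960 genes with CACTGCCA had a median of 0.034. In double against p53 deficient tumours the median of the genes with a match was thus no higher than that of the genes without one. The stretches of 22 bases with the match in capitals are given for the 4 changed genes that hold one (Tbc1d16, higher, and Cwh43, Pag1 and Myo1c, lower) and for 2 published targets, Il6ra and Inhbb.
Tbc1d16 (chr11:119146022-119146043, - strand): aacaggtatatccaCACTGCCt
Cwh43 (chr5:73453380-73453401, + strand): gtttcagtgctcagCACTGCCA
Pag1 (chr3:9693495-9693516, - strand): caatgccaaaatccCACTGCCt
Myo1c (chr11:75673491-75673512, + strand): ccctcagcacatctCACTGCCt
Il6ra (chr3:89869829-89869850, - strand): ttcctgctacacctCACTGCCA
Inhbb (chr1:119416788-119416809, - strand): cagtcctgcctgctCACTGCCc
A match describes the sequence only. Of the 31 changed genes with an annotated 3' UTR, 4 held a match, and of the 45 published targets 31 did, with medians of 0.082 for those 31 and -0.041 for the other 14.

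The loss of miR-34a was also read where p53 is present, as miR-34a deficient minus wt, from the other 6 libraries, so the 2 differences share no library. Of the 47 genes changed in the absence of p53, 36 had the same sign there. The share over all genes tested was not taken, and some of these differences were near 0, as in Myo1c (-0.02) and Adarb2 (-0.06). Eno1b (-7.46 against -7.19), Rpl35a (3.15 against 3.84) and Trpv1 (-1.69 against -2.64) differed in the same direction in both settings. The test of the difference between the settings (the interaction) passed for 2 of 21322 genes (0.00938%), Fshr and Gm15195. Atp12a, Retnlb, Gsta1, Ly6g, Gpr110 and Phactr4 differed by -1.36 to 0.06 between miR-34a deficient and wt tumours, and their interactions did not pass (adjusted p between 0.256 and 0.697). Where p53 is present, the list medians were -0.34 for colonocyte (against -1.15 in its absence), -0.49 for goblet (-1.37), 0.63 for Wnt (0.94), 0.93 for endothelial (0.89), 0.57 for smooth muscle (0.16) and -0.37 for proliferation genes (-0.02). Genes with a seed match had a median of 0.055 where p53 is present, and genes without one 0.011. In the absence of p53 the order was the reverse (0.015 and 0.043). The contrast between the settings was not tested over lists or over genes with a match.

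**Figure D5:**
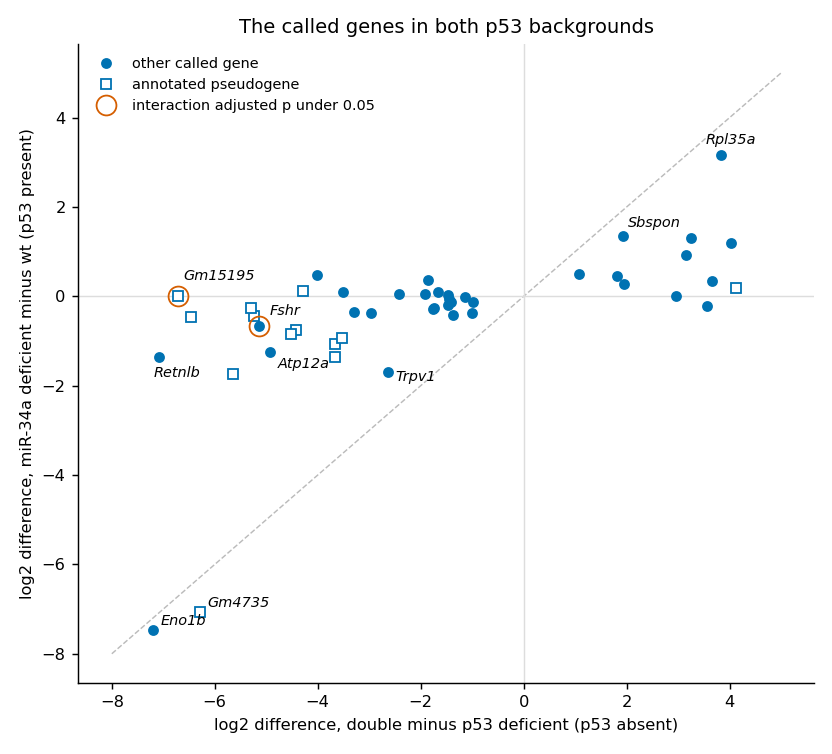
Log2 difference of each of the 47 changed genes without p53 (double minus p53 deficient, horizontal) and with p53 (miR-34a deficient minus wt, vertical), with the line of equal differences (circles, other genes; squares, annotated pseudogenes; rings, interaction adjusted p under 0.05). Eno1b, Gm4735, Rpl35a and Trpv1 lie toward the line, and the ringed Fshr and Gm15195 lie far from it, near 0 on the vertical axis.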

How the data were processed

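Total RNA of tumour tissue was sequenced in 12 libraries. The table deposited by the authors holds a score per gene symbol, a normalized expression value that they rounded to a whole number. The build was mm10, per the submitters' processing notes. How reads were aligned, counted and normalized is not given in the sources used here, so depth and counting error are unknown. Genotypes come from the titles. Values were used as log2(value + 1) without rescaling. limma 3.58.1 in R 4.3.3 fitted 1 mean per genotype over all 12 libraries, with a trend in the prior variance, the missing direction of variation as a covariate and 7 residual degrees of freedom. That direction was found in 9791 genes with a mean of at least 500, where the last of 8 singular values was 0.179 and the one before 32.2. The procedure was tested on simulated data, in which the noise was independent between genes and had the same spread in all genotypes. Outlying libraries and the Y-linked difference were not simulated, so that test does not cover them. Positions and 3' UTRs come from GENCODE M21 (GRCm38), with a position for 20783 tested genes (97.5%), and mature microRNAs from RefSeq. The genes named are Trp53, Vil1 and 20 fixed genes, the 12 largest changes in each direction among changed genes that reach a mean log2 of 5, bear a gene symbol and have groups that do not overlap, and up to 3 members per list by p. Members, lists and rule were chosen with earlier results of these data known. Alternatives changed the covariate, scaling, pseudocount, filter, libraries, trend, block and Y-linked level. 1 of the fixed genes is not reported here.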

Additional observations from a re-analysis of the deposited data

Results flagged for a closer look

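The difference that followed the loss of miR-34a was itself unequal with and without p53 for 2 genes by the interaction in limma. For Fshr, the follicle-stimulating hormone receptor gene, the fall in double against p53 deficient tumours exceeded the difference between miR-34a deficient and wt tumours (-0.67) by an interaction of -4.47 ± 0.49 on the log2 scale (adjusted p = 0.0246). All 3 double deficient libraries (58, 33 and 32) lay below all 9 others, which ranged from 1002 to 2737. For Gm15195, a processed pseudogene on the X chromosome, the interaction was -6.73 ± 0.55 (adjusted p = 0.00318), with 1, 3 and 3 in the double deficient libraries and 184 to 393 in the other 9. With Y-linked expression as a covariate neither interaction passed (-4.90 with adjusted p = 0.194 and -6.54 with adjusted p = 0.16). That covariate separates double from p53 deficient libraries, so this fit does not tell its part from that of the genotype. The interaction of Fshr also failed in 6 of the 12 fits without 1 library (adjusted p up to 0.118, without p53 deficient 2), as well as with no low-value filter (0.0583), with no trend (0.0737) and when libraries with the other run code were left out (0.158). The interaction of Gm15195 passed in these 3 fits and in all 12.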

How the results depend on the processing

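Against 47 changed genes, the count was 129 without the covariate for the missing direction, 31 with a filter at a mean of 100, 27 without a trend, 5 with Y-linked expression as a covariate and 6 in a fit of the 6 libraries alone. Chosen after seeing the data, the 6 libraries without the covariate gave 12, and leaving out double deficient 3 without the covariate gave 27. Leaving out 1 library gave 17 to 133. The replicate block gave 42, of which 34 were among the 47; the numbers were not treated as pairs, since same-number correlations were 0.121, 0.004 and 0.539 and 3 of 6 libraries correlated best with their own number. For the interaction (2 genes), the count was 5 without the covariate, 1 without the low-value filter, 1 without X and Y genes, 0 with the Y-linked covariate (adjusted by limma) and 1 to 7 without 1 library. No changed gene reversed in the 29 alternatives, and 11 of 92 unchanged named genes passed in at least 1 of them. Unchanged genes that reversed were Cdh1 (0.07, quantile normalization); with the Y-linked covariate Mki67 (0.07), Xist (-2.02), Tsix (-0.87) and Tubb3 (1.35); without the other run code Hba-a2 (-0.62) and Hbb-bt (-0.61); and without 1 library Vil1 (-0.31 to 0.07), Socs3 (-0.02 to 0.60), Myc (-0.10 to 0.23), Hoxa13 (-0.03 to 0.70), Lpl (-0.24 to 1.19), Hba-a2 (-0.62 to 1.67) and Hbb-bt (-0.61 to 1.35). Of 1156 list medians 5 moved beyond the spread between libraries: plasminogen activation (0.68), proliferation (0.30) and Y-linked genes (0.02) with the Y-linked covariate, Y-linked genes with pseudocount 10 (-2.38), and junction and keratin genes under quantile normalization (-0.11). The causes were not tested.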
